A study of Rattus norvegicus with 52 samples.

Results

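Kidney gene expression was compared between 4 ET3x2 rats and 5 SS/jr rats, called S, that all ate the low salt diet. The rats were taken by the strain, diet and animal number in the labels, and each rat gave 1 RAE230A and 1 RAE230B array, so that 18 of the 52 arrays of the series and 9 of its 26 rats entered the comparison. S is the inbred Dahl salt-sensitive strain, and ET3x2 is a congenic strain, whose full name in the labels gives R (the salt-resistant strain) as the donor of a segment and S as the background. The ends of the segment are not given in the labels. All 26 rats were male, were weaned at 30 days onto a diet with 0.4% NaCl, and gave RNA of the left kidney at 40 to 42 days of age. The other rats used below were 4 ET3x2 and 5 S rats moved to 4% NaCl for the last 24 hours, and 4 rats of ET3x1, a second congenic strain of S, on low salt. The whole kidney was extracted, so each value is a mean over tubules, vessels, glomeruli and blood-borne cells. Rats are numbered within their group, and the numbers do not pair rats of different groups.

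Dahl S rats become hypertensive on a salty diet, and the strain is used to study how the kidney sets blood pressure through the salt it retains. Most filtered sodium is taken back in the proximal tubule, a further part by the cotransporter of the thick ascending limb, and the last part under aldosterone in the collecting duct. A congenic strain differs from its background strain in the DNA of the introduced segment, so genes that differ in expression may lie within the segment or elsewhere in the genome. On low salt the strains are compared before any salt load.

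The 2 chips held 31042 distinct probe sets other than controls, and the 15473 with a mean at or above their chip's median over all 26 rats were tested. They stood for 8825 genes by their annotation. The kidney markers Slc34a1, Umod and Aqp2 had signals of 12.91 to 13.24, 13.19 to 13.60 and 11.03 to 11.93 (log2) over the 9 rats, whereas the skeletal muscle actin gene Acta1 had 4.94 to 5.24. Along the mean difference of the strains the 9 rats did not split evenly. On a scale where the means of the groups lie 1 apart, ET3x2 rats 1, 2 and 4 were at 0.81, 0.58 and 0.54, ET3x2 rat 3 at 0.06, and the 5 S rats between -0.84 and -0.23. ET3x2 rat 3 therefore lay between the other ET3x2 rats and the S rats. The difference of the bioD and bioC hybridisation controls also moved with strain. On RAE230A it was 2.14 to 2.46 (log2) in the 4 ET3x2 rats and 2.69 to 2.95 in the 5 S rats (exact permutation test, two-sided, p = 0.0159, 0.127 adjusted over 8 measures). On RAE230B these ranges overlapped, at 2.20 to 2.33 and 2.19 to 3.04. RNA integrity was read from the Gapdh control on RAE230A as its 3' signal minus its 5' signal. This was 0.855 to 1.01 in the 4 ET3x2 rats and 0.741 to 0.908 in the 5 S rats (exact permutation test, two-sided, p = 0.0476, 0.190 adjusted). On RAE230B the Gapdh ranges overlapped, at 0.733 to 0.815 in ET3x2 and 0.606 to 0.880 in S. The beta-actin control, read the same way, went in the other direction. Its mean was 1.05 in ET3x2 and 1.14 in S on RAE230A, and 0.85 and 0.94 on RAE230B, with overlapping ranges (exact permutation test, two-sided, 0.744 adjusted for each). The bioD minus bioC and Gapdh differences were each added as a covariate, with counts given below. Their part in the results was not tested otherwise.

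Many genes differed by a modest amount between the strains on low salt, with Rtel1, Tns1, Evi5 and Stat3 among the highest in ET3x2 and Gatm, Ppp1cb, Prrc2c and Vcl among the lowest. limma called 2817 of the 15473 probe sets (18.2%) at an adjusted p below 0.05, 1469 higher (9.49%) and 1348 lower (8.71%) in ET3x2. Their median absolute difference was 0.35 on the log2 scale, and 21 differed by over 2-fold. The 4 ET3x2 and 5 S rats did not overlap in 1477 of the called probe sets, against 12.4% of all tested probe sets. The calls stood for 2151 genes, and 543 of the called probe sets had no single gene symbol. The number of calls depended on single rats. Without ET3x2 rat 1 there were 1345 calls, of which 590 were higher, and without ET3x2 rat 2 there were 1773, of which 820 were higher. Without ET3x2 rat 3 there were 3907, of which 2339 were higher, and without S rat 1 there were 2119, of which 898 were higher. The bar chart of calls shows all 9 such counts. With the bioD minus bioC difference as a covariate 1437 probe sets were called and 1393 of the 2817 were called again in the same direction. With the Gapdh difference as a covariate these numbers were 1542 and 1518.

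**Figure D1:**
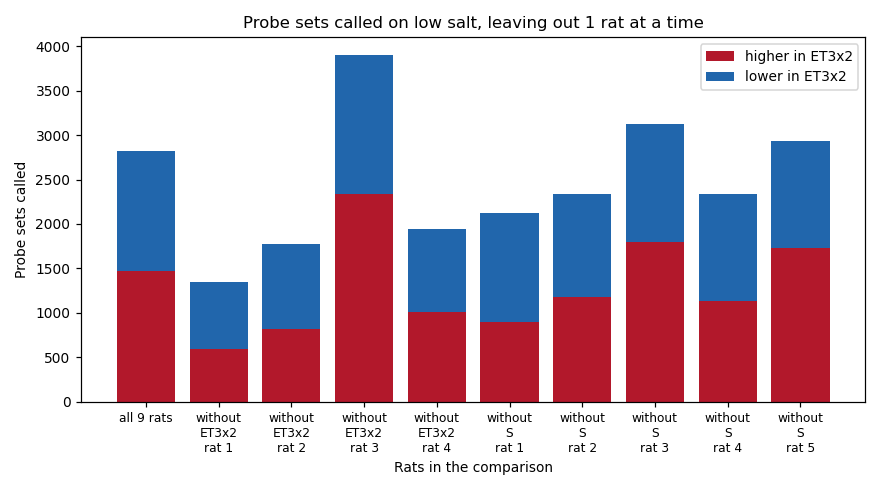
Number of probe sets called by limma between ET3x2 and S on low salt with all 9 rats and without each rat in turn, with calls higher in ET3x2 in red and calls lower in ET3x2 in blue. The total runs from 1345 without ET3x2 rat 1 to 3907 without ET3x2 rat 3, and 2817 is the total with all rats.

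Rtel1, which encodes a DNA helicase that maintains telomeres, had the smallest adjusted p. Its signal was 8.11, 8.38, 7.99 and 8.31 (log2) in the 4 ET3x2 rats and 7.26, 7.20, 7.10, 7.15 and 7.15 in the 5 S rats. The lowest ET3x2 rat was well above the highest S rat, and ET3x2 rat 3 was again the nearest to S. The difference was 1.02 ± 0.07 (log2, standard error), a 2.03-fold higher signal (limma adjusted p = 8.2e-10). A second probe set of Rtel1 was also called, at 0.31 ± 0.08 (limma adjusted p = 0.0130). The difference recurred in other rats on high salt, with 8.08, 8.02, 8.01 and 7.94 in ET3x2 and 7.27, 7.16, 7.11, 7.12 and 7.08 in S. It was 0.87 ± 0.07 there, and its change with diet was 0.16 ± 0.10 (limma adjusted p = 0.650). Rtel1 is gene 659 of the 669 tested genes of chromosome 3 in the order of the GRCr8 assembly. The promoter of Rtel1 is shown because its difference was the most certain, and it lies at chr3:188807748-188808047 (GRCr8, plus strand, RefSeq), from 250 bases before to 50 bases after the gene's start. Capitals mark a GC box (GGGCGG, here on the other strand as CCGCCC) and a CCAAT motif.

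Rtel1: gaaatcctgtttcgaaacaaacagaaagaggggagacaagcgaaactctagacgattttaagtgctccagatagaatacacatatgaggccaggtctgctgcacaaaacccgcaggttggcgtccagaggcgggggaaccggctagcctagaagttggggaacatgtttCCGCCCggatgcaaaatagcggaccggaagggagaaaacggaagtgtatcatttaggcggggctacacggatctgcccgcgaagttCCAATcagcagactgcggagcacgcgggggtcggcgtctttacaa

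The GC box was found in 34.9% and CCAAT in 37.7% of 27457 RefSeq promoters of this length, with both strands searched, so their presence here is a description only.

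For 3 further genes among the highest the 5 S rats had low signals while the 4 ET3x2 rats lay close together. Evi5, for a protein that acts on Rab GTPases, was 9.19, 9.16, 9.19 and 9.17 in ET3x2 and 7.53, 7.60, 7.87, 8.13 and 8.02 in S. Every S rat was lower than the 4 ET3x2 rats. The difference was 1.35 ± 0.22, or 2.55-fold (limma adjusted p = 2.27e-04). Tns1, for the focal adhesion protein tensin, was 10.03, 9.87, 9.81 and 10.02 in ET3x2 and 8.06, 8.37, 8.97, 8.79 and 8.80 in S, a difference of 1.33 ± 0.14 (limma adjusted p = 3.53e-06). Stat3, for a transcription factor that acts downstream of interleukin-6, was 8.86, 8.71, 8.53 and 8.67 in ET3x2 and 7.50, 7.51, 8.10, 7.82 and 7.81 in S. The 0.94 ± 0.11 higher Stat3 signal was called (limma adjusted p = 6.37e-06). The groups did not overlap for Evi5, Tns1 or Stat3.

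The other genes of the 14 highest fell into several roles. Cpd (1.13 ± 0.19), Mgll (1.11 ± 0.22) and Mmp14 (0.88 ± 0.16) encode a carboxypeptidase, monoacylglycerol lipase and a membrane-bound matrix metalloproteinase. Pbrm1 (1.08 ± 0.21), Ccar1 (1.00 ± 0.20) and Polr1f (0.96 ± 0.13) encode a subunit of a chromatin remodelling complex, a transcription coactivator and a subunit of RNA polymerase I. Cmip (1.10 ± 0.14) encodes an adaptor protein, Dapk3 (1.01 ± 0.26) a kinase, Cd99 (0.83 ± 0.27) a cell surface glycoprotein and Timm13 (0.81 ± 0.19) a chaperone of mitochondrial import. S rat 1 was the furthest from the ET3x2 rats in 13 of the 14 genes, and ET3x2 rat 3 was the nearest to S in 12. The groups overlapped for Dapk3, Cd99 and Timm13, where ET3x2 rat 3 was at 8.45, 8.60 and 9.71 and the highest S rat at 9.02, 9.16 and 9.93. Dapk3 was not called without ET3x2 rat 1, and Cd99 was not called without ET3x2 rat 1, 2 or 4 or S rat 1 or 2.

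Most of these differences rested on 1 probe set of the gene. Of the 14 genes 9 had other tested probe sets, 15 in all, and only that of Rtel1 was called higher. Evi5 had a second probe set called lower (-0.35 ± 0.08), as had Pbrm1 (-0.40 ± 0.14). The 3 other probe sets of Tns1 differed by -0.13 ± 0.08, 0.03 ± 0.17 and -0.01 ± 0.08, and the other one of Stat3 by -0.24 ± 0.10, none of them called. Which transcripts the probe sets detect is not given in the files, so these values are those of a probe set and not of a whole gene.

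Among the 14 lowest genes were several with a known place in proximal tubule and creatine metabolism. Gatm, for the enzyme of the first step of creatine synthesis, was 10.83, 10.84, 11.16 and 10.76 in ET3x2 and 12.14, 11.76, 11.82, 12.11 and 12.12 in S. The highest ET3x2 rat lay below the lowest S rat, and the difference was -1.09 ± 0.12, a 2.13-fold lower signal (limma adjusted p = 3.59e-06). Slc16a12, for a creatine transporter, differed by -0.89 ± 0.15 and Aldh6a1, for an enzyme of valine breakdown, by -0.82 ± 0.12. Slco1a3, for an organic anion transporter, differed by -0.92 ± 0.19. Maf (-0.86 ± 0.15) encodes a transcription factor. COX1, for a subunit of cytochrome c oxidase made from mitochondrial DNA, was 11.49, 11.72, 12.37 and 11.63 in ET3x2 and 13.44, 12.60, 12.29, 13.34 and 12.38 in S (-1.01 ± 0.24, limma adjusted p = 0.00597). ET3x2 rat 3 lay within the range of the S rats for COX1, the only one of the 14 genes in which the groups overlapped.

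A second set of the lowest genes serves the cell's adhesion, membrane and RNA. Vcl, for the focal adhesion protein vinculin, was 8.15, 8.28, 9.03 and 8.55 in ET3x2 and 9.39, 9.35, 9.52, 10.83 and 9.54 in S. S rat 4 stood far above the other S rats, but the call held without it. The difference of Vcl was -1.23 ± 0.24 (limma adjusted p = 0.00124). Ppp1cb, for a catalytic subunit of protein phosphatase 1, was 7.34, 7.43, 7.68 and 7.06 in ET3x2 and 8.59, 8.33, 8.32, 8.43 and 8.76 in S (-1.11 ± 0.15, limma adjusted p = 7.73e-05). Prrc2c (-1.10 ± 0.13) and Lrrc58 (-1.08 ± 0.14) followed. Atp11a (-0.90 ± 0.14) and Plscr2 (-0.90 ± 0.14) encode a lipid flippase and a lipid scramblase, Nrp1 (-0.84 ± 0.12) a receptor for semaphorins and vascular growth factor, and Pnn (-0.83 ± 0.14) a protein of splicing and cell junctions. ET3x2 rat 3 was the nearest to S in all 14 of the lowest genes. Of the 14 genes 10 had other tested probe sets, 11 in all, of which those of Atp11a (-0.42 ± 0.11), Pnn (-0.33 ± 0.09) and Aldh6a1 (-0.60 ± 0.18) were also called lower and 0 were called higher.

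Among the 6 genes of smallest adjusted p was also Myh1, by annotation a myosin heavy chain of skeletal muscle, at 10.41, 10.32, 10.45 and 10.24 in ET3x2 and 11.33, 11.02, 11.07, 11.39 and 10.96 in S (-0.80 ± 0.09). All 5 probe sets under this name were called lower. Other skeletal muscle genes had low signals over the 9 rats, 4.94 to 5.24 for Acta1, 5.62 to 6.33 for Ckm and 5.77 to 5.98 for Tnnt3, all below the chip median. The name Myh1 comes from the platform annotation, and which transcript these probe sets detect was not tested. Of these 29 leading genes (the 14 highest, the 14 lowest and Myh1), 27 kept their call without any 1 of the 9 rats, 28 with the bioD minus bioC covariate and 28 with the Gapdh covariate.

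**Figure D2:**
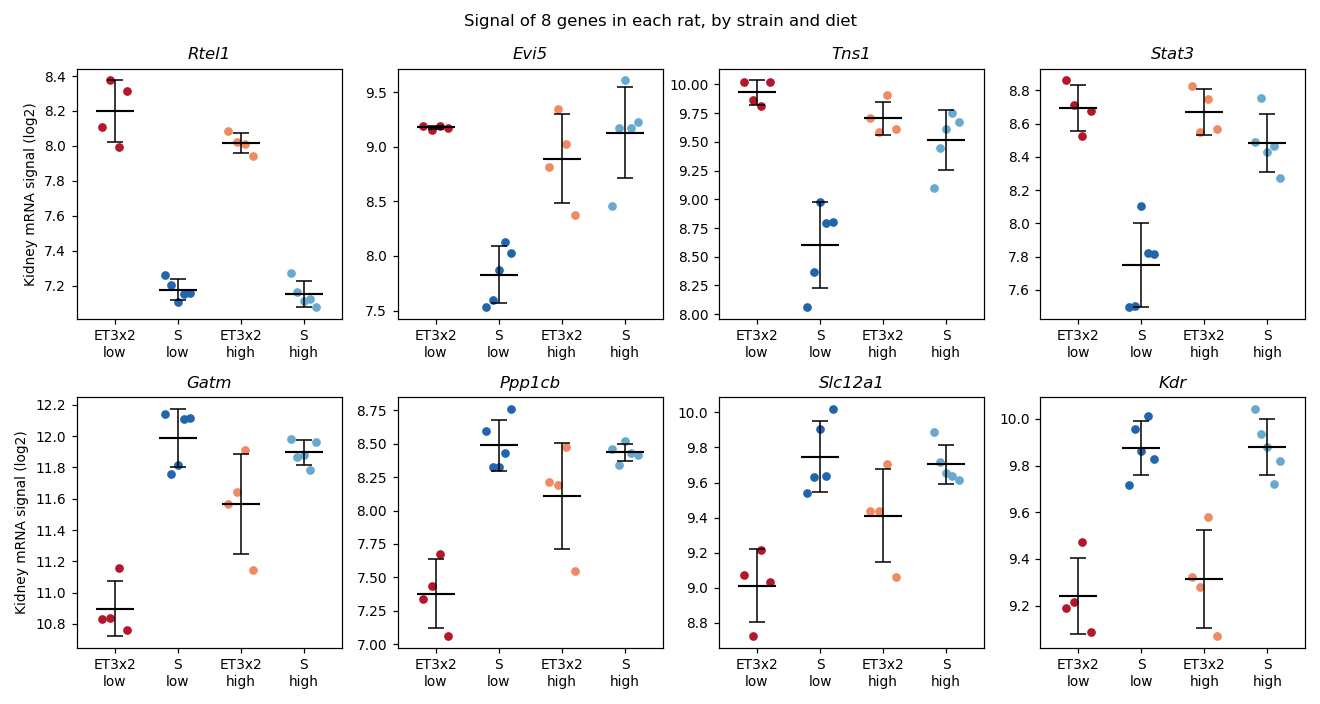
Signal (log2) of 8 genes in each rat, with 4 ET3x2 and 5 S rats on low salt and on high salt, and black lines for the mean and SD of each group. Rtel1 and Kdr separate the strains on both diets, Evi5, Tns1 and Stat3 are low only in the S rats on low salt among these 4 groups, and Gatm and Ppp1cb have their lowest mean in the ET3x2 rats on low salt.

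The same strains were set against each other in other rats on high salt, to see which differences recurred. Here limma called 658 probe sets (4.25%), 198 higher and 460 lower. Of the 2817 called on low salt 295 were called again in the same direction, which is 10.5% of the low salt list and 44.8% of the high salt list, and 0 in the opposite direction. The sign was the same on both diets for 90.8% of the low salt calls and for 71.7% of all tested probe sets, and the median difference of the low salt calls on high salt was 0.16 in their own direction. Across all 15473 probe sets, which are not independent replicates, Pearson's r of the low and high salt differences was 0.59. The calls on high salt fell to 79 without ET3x2 rat 2 of that group, to 112 without its rat 4, and to 216, 235 and 293 without S rats 1, 2 and 3 on high salt.

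All 29 leading genes had a smaller difference on high salt, and 26 had the same sign. By the leading probe set of each gene, only Rtel1, Nrp1 (-0.46 ± 0.12) and Aldh6a1 (-0.43 ± 0.12) were called on both diets. The second probe set of Rtel1 was also called higher on both. Other probe sets of Atp11a (-0.42 on low and -0.43 on high salt) and Pbrm1 (-0.40 and -0.51) were called lower on both. The levels on high salt show where the groups came closer. The 5 S rats on high salt had Evi5 at 8.46, 9.18, 9.61, 9.17 and 9.23 and the 4 ET3x2 rats at 8.82, 9.35, 9.02 and 8.38, so that the strains overlapped. For Tns1 these values were 9.10, 9.45, 9.61, 9.75 and 9.67 in S and 9.71, 9.59, 9.91 and 9.61 in ET3x2. In both genes the S rats on low salt lay below every rat of the 3 other groups. Gatm on high salt was 11.98, 11.86, 11.88, 11.79 and 11.96 in S and 11.57, 11.64, 11.91 and 11.15 in ET3x2, with the 3 lower ET3x2 rats still below all S rats. Genes were ranked by their low salt difference, and a set ranked this way has smaller differences in other rats by its choice alone.

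The change of the strain difference with diet was therefore tested itself. limma called 3 of 15473 probe sets (0.0194%), while 1390 had an unadjusted p below 0.05. The 3 probe sets belong to Tns1 (1.14 ± 0.20, limma adjusted p = 0.0493), Myh1 (-0.74 ± 0.13, limma adjusted p = 0.0493) and Igf1r, for the receptor of insulin-like growth factor 1 (0.77 ± 0.14, limma adjusted p = 0.0497). The probe set of Myh1 was not the one with the values above, and that one and the other 3 of Myh1 were not called (limma adjusted p = 0.0846 to 0.701). Igf1r was 8.51, 8.41, 8.48 and 8.50 in ET3x2 and 7.83, 7.93, 8.19, 7.84 and 8.15 in S on low salt, against 8.18, 8.32, 8.33 and 8.19 in ET3x2 and 8.56, 8.44, 8.78, 8.48 and 8.40 in S on high salt. ET3x2 was above S on low salt in every rat and below S on high salt in every rat. The other tested probe set of Igf1r differed by -0.09 ± 0.09 on low salt. These 3 calls were close to the threshold. limma called 0 with array medians centred, with either covariate, with the groups compared alone and in 13 of the 18 fits that left out 1 rat, where 1019 to 1564 probe sets still had an unadjusted p below 0.05. It called 44 without ET3x2 rat 4 on high salt, 43 without ET3x2 rat 3 on low salt and 20 without S rat 3 on low salt. The median standard error of this difference was 0.125, against 0.0882 for the strain difference on low salt.

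**Figure D3:**
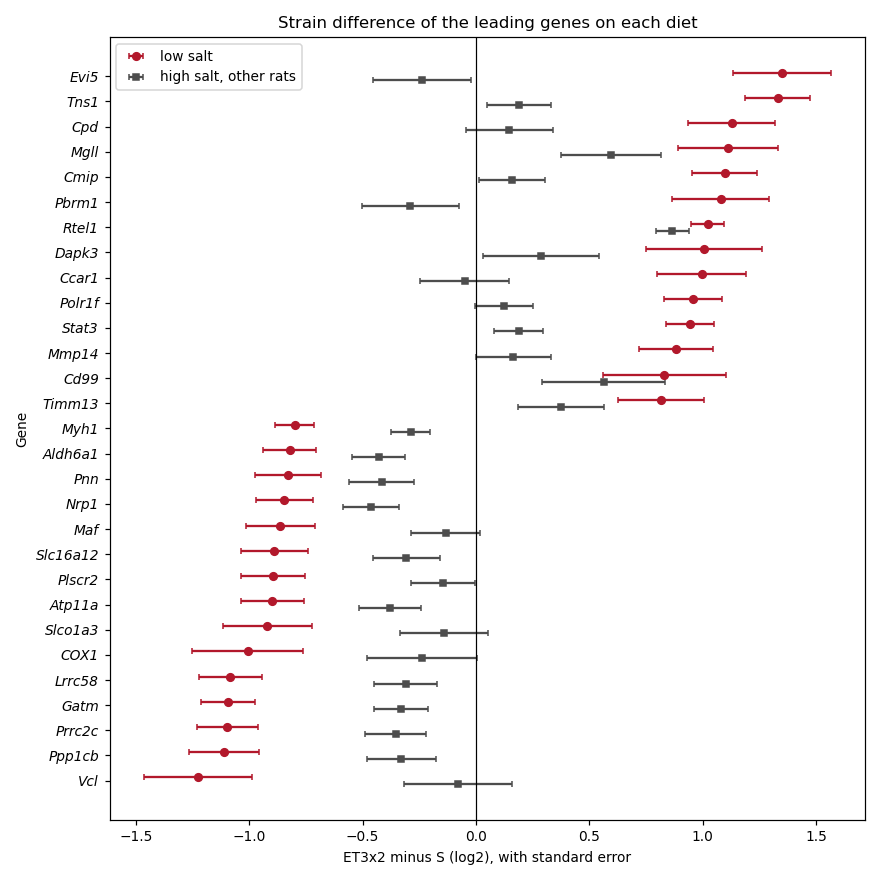
Difference of ET3x2 minus S (log2, with its standard error) for the 29 leading genes on low salt (red circles, 4 ET3x2 and 5 S rats) and in other rats on high salt (grey squares, 4 and 5 rats). Every grey square lies nearer to 0 than its red circle, and Rtel1 has the nearest pair, at 1.02 and 0.87.

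ET3x2 was also compared directly with ET3x1 on low salt. This difference does not use the S rats, although its standard error draws on the spread within all 6 groups. limma called 422 probe sets (2.73%), and 222 of the 2817 were among them in the same direction. By the leading probe set of each gene, limma called 0 of the 14 highest genes between the congenic strains, of which 1 had an unadjusted p below 0.05. It called 8 of the 14 lowest: Ppp1cb, Gatm, Lrrc58, COX1, Plscr2, Slc16a12, Maf and Aldh6a1. Another probe set of Cmip, one of the highest genes, was called lower in ET3x2 than in ET3x1 (-0.49 ± 0.12, limma adjusted p = 0.0189). Gatm differed in ET3x2 from ET3x1 by -1.02 ± 0.13 (limma adjusted p = 8.67e-05), COX1 by -1.42 ± 0.26 (limma adjusted p = 0.00385) and Ppp1cb by -0.77 ± 0.16 (limma adjusted p = 0.00945). Evi5, Tns1 and Stat3 differed between the congenic strains by -0.23 ± 0.23, 0.18 ± 0.15 and 0.00 ± 0.11 (limma adjusted p = 0.676, 0.609 and 0.999). Set against the same S rats, ET3x1 differed by 1.58 ± 0.22 in Evi5, 1.15 ± 0.14 in Tns1, 0.94 ± 0.11 in Stat3 and -0.08 ± 0.12 in Gatm, beside 1.35, 1.33, 0.94 and -1.09 in ET3x2. The values against S share their control rats and are not independent of each other. The direct comparison uses the same ET3x2 rats by which the genes were chosen, so it is not independent of that choice.

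The gene groups were read against all 8825 genes, each by its brightest probe set, of which 12.9% were called higher and 9.29% lower, with a median difference of 0.04. Among markers of leukocytes 10 of 21 tested genes were higher in ET3x2 and 0 lower, with a median of 0.11, and 6 further markers on the chips were below the signal limit. The class II antigen-presenting genes RT1-Db1 (0.62 ± 0.17), RT1-Bb (0.40 ± 0.14), RT1-Da (0.37) and Cd74 (0.33), the complement genes C1qa (0.43 ± 0.13) and C1qb (0.39), and the signalling adaptor genes Tyrobp (0.40 ± 0.07) and Fcer1g (0.39 ± 0.10) were among them, with Coro1a (0.55 ± 0.13) and Laptm5 (0.31). Tyrobp was 8.23, 8.02, 7.98 and 8.19 in ET3x2 and 7.65, 7.84, 7.70, 7.65 and 7.67 in S, without overlap. It was the only 1 of the 21 genes whose groups did not overlap, against 12.4% of all tested probe sets. RT1-Db1 was 10.61, 10.03, 9.57 and 10.21 in ET3x2 and 8.94, 9.30, 9.97, 9.36 and 9.83 in S, with ET3x2 rat 3 below 2 of the S rats. The T cell genes Cd3e (-0.08) and Cd8a (-0.13) were not called. On high salt 4 of the 21 were called higher and 0 lower, with a median of 0.23, where 3.76% of all genes were called, 1.36% higher and 2.4% lower. The mean of the 21 genes was 8.85 to 9.20 over the ET3x2 rats and 8.72 to 8.95 over the S rats on low salt, and 9.11 to 9.21 and 8.90 to 9.01 on high salt. The low salt count was 3 without ET3x2 rat 1 or without rat 4, 4 without S rat 1, 5 without S rat 4 5 with the bioD minus bioC covariate and 6 with the Gapdh covariate. RT1-Db1 was not called without ET3x2 rat 1, C1qa without ET3x2 rat 1 or 4 or S rat 1, and RT1-Bb without ET3x2 rat 1 or 4 or S rat 1, 2 or 4. In ET3x1 against the same S rats RT1-Db1, RT1-Bb, C1qa, Tyrobp and Coro1a were also called higher, at 0.86, 0.59, 0.71, 0.49 and 0.69. Between ET3x2 and ET3x1 none of these genes was called (limma adjusted p = 0.307 to 0.676). In RNA of a whole kidney, more cells of a type and more RNA per cell cannot be told apart.

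**Figure D4:**
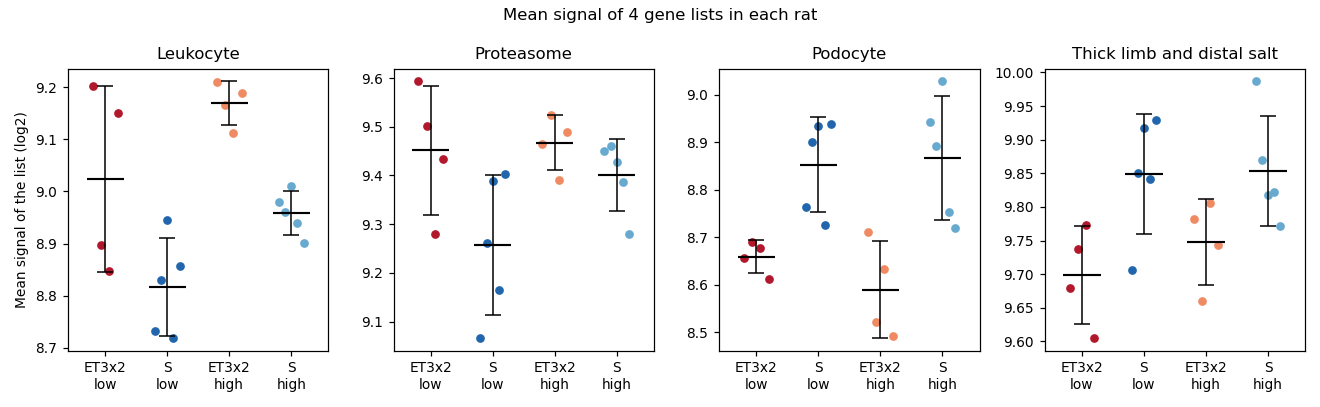
Mean signal (log2) of the tested genes of 4 lists in each rat (21 leukocyte, 44 proteasome, 6 podocyte and 16 thick limb and distal salt genes), with black lines for the mean and SD of each group. On low salt the 4 podocyte means of ET3x2 lie between 8.61 and 8.69, below all 5 S rats at 8.73 to 8.94, while the leukocyte and proteasome means of the strains overlap.

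The proteasome, the complex that degrades tagged proteins, had 15 of its 44 tested genes higher and 1 lower, with a median of 0.18. Subunits of its variants induced by interferon were among the furthest. Psmb8 was 8.50, 8.05, 7.76 and 8.25 in ET3x2 and 7.21, 7.45, 7.99, 7.13 and 7.56 in S, so that S rat 3 was above ET3x2 rat 3 (0.67 ± 0.13, limma adjusted p = 0.00128). Psmb10 differed by 0.41 ± 0.12 and the activator subunit gene Psme2 by 0.40 ± 0.10. Genes of the constant core and cap were also higher, among them Psmd4 (0.59 ± 0.10), Psmc1 (0.43 ± 0.12), Psmb3 (0.39), Psmc4 (0.35), Psmb7 (0.34), Psmb5 (0.34) and Psmb2 (0.26), while the core gene Psma1 was lower (-0.28). On high salt 1 was called higher and 0 lower, with a median of 0.06. The low salt count of higher genes was 7 without ET3x2 rat 1, 10 without ET3x2 rat 2, S rat 1 or S rat 4, 22 without ET3x2 rat 3, 5 with the bioD minus bioC covariate and 7 with the Gapdh covariate. Psme2 was not called without ET3x2 rat 1, Psmc1 without ET3x2 rat 1 or 2, and Psmb10 without ET3x2 rat 1 or 2 or S rat 1 or 4. With either covariate neither Psmb10 nor Psme2 was called, whereas Psmb8 was.

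The promoters of Psmb8, Psmb10 and Psme2 are shown because these 3 genes of the interferon-induced proteasome were each called higher on low salt. They lie at chr20:4656982-4657281, chr19:50743243-50743542 and chr15:33052702-33053001, all on the minus strand of GRCr8 (RefSeq). Capitals mark the core of the interferon-stimulated response element (GAAA, any 2 bases, then GAAA, on either strand), the GAS element bound by STAT factors (TTCNNNGAA), CCAAT (or ATTGG) and the GC box.

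Psmb8: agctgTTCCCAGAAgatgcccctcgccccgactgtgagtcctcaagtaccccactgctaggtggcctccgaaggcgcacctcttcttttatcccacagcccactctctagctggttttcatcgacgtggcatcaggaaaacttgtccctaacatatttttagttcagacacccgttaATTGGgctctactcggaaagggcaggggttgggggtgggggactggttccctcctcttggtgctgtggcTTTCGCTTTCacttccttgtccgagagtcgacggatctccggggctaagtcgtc
Psmb10: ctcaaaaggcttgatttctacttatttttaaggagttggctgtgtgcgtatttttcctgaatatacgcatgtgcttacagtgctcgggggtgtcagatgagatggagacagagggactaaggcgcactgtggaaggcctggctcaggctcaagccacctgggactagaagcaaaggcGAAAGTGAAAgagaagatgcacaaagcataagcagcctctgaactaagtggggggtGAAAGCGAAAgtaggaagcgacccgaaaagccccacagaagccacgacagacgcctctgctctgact
Psme2: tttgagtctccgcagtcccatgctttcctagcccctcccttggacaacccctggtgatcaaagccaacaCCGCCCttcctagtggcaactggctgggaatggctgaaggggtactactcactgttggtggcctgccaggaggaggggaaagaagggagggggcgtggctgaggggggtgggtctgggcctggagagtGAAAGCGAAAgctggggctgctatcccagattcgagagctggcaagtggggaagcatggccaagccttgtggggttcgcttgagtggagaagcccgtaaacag

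The response element core was found in each of the 3 promoters, at 2 places in Psmb10, and in 3.77% of all 27457 promoters. The GAS element was found in that of Psmb8 and in 8.68% of all promoters. Of the other called proteasome genes with a promoter in the table, Psmb3 also held the response element core and Psmd3 held the GAS element at 3 places. A match is a description of these letters and not a measured binding site. The 3 genes were picked as interferon-induced from among the called genes, so the 3.77% is not a test of them. Any link of the motifs to the strain difference was not tested. The promoters of Psma7, Fcer1g and Tyrobp were not matched in the table.

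Genes of RNA splicing and its heterogeneous nuclear ribonucleoproteins were called both ways, 8 higher and 13 lower of 61 tested, with a median of -0.07. Among the lower were Srsf11 (-0.69 ± 0.12), Hnrnpa2b1 (-0.69 ± 0.13) and Hnrnpr (-0.48 ± 0.11), with Srsf5 (-0.44), Rbm25 (-0.44), Hnrnpa1 (-0.37) and Srsf2 (-0.35). Among the higher were Sf3b5 (0.59 ± 0.16), Prpf3 (0.49 ± 0.07), U2af1 (0.48) and Prpf6 (0.33 ± 0.07). Srsf11 was 8.04, 8.10, 8.55 and 8.06 in ET3x2 and 8.87, 8.84, 8.83, 8.74 and 9.12 in S. Another probe set of Srsf11 was called higher without overlap of the groups (0.48 ± 0.10, limma adjusted p = 0.00223), so that the probe sets of this gene went both ways. The count of lower genes ran from 9 to 15 without 1 rat, and that of higher genes was 2 without ET3x2 rat 1, 3 without ET3x2 rat 2 or 4, 5 without S rat 1 and 4 without S rat 4. With the bioD minus bioC covariate 2 were higher and 8 lower, and with the Gapdh covariate 4 were higher and 7 lower. Sf3b5 was not called without ET3x2 rat 1 or 4. On high salt 0 were called higher and 5 lower.

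In the glomerulus, the filter of the kidney, 2 of 6 tested podocyte genes were lower and 0 higher, with a median of -0.27. They were Podxl (-0.28 ± 0.08), for the coat protein podocalyxin, and Synpo (-0.26 ± 0.08), for an actin-linked protein of the foot processes. Podxl was 9.30, 9.42, 9.51 and 9.32 in ET3x2 and 9.76, 9.78, 9.71, 9.51 and 9.58 in S. Ptpro (-0.28 ± 0.11) and Cd2ap (-0.28 ± 0.12) were not called. With either covariate 1 of the 6 was lower, and Synpo was not called. Podxl and Synpo were both called on high salt too, at -0.46 and -0.41. On low salt neither was called without ET3x2 rat 1, and 1 of the 6 was called without ET3x2 rat 4, S rat 2 or S rat 3.

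Of 13 endothelial genes 2 were lower and 0 higher, with a median of -0.01. Kdr, for the main receptor of vascular endothelial growth factor, was 9.19, 9.22, 9.47 and 9.09 in ET3x2 and 9.72, 9.96, 9.86, 10.01 and 9.83 in S. No rats of the strains overlapped, the difference was -0.64 ± 0.10 (limma adjusted p = 2.15e-04), and it was -0.57 ± 0.10 in the rats on high salt. Ehd3, an endothelial gene of the glomerulus, was 6.93, 6.92, 6.94 and 6.91 in ET3x2 and 7.25, 7.20, 7.31, 7.28 and 7.69 in S (-0.42 ± 0.11), and -0.58 on high salt. Pecam1 (0.07), Tie1 (-0.11) and Emcn (-0.16), which mark endothelium more widely, were not called. Of 10 smooth muscle genes Tpm2 was higher (0.49 ± 0.09) and Mylk (-0.48 ± 0.10), Cald1 (-0.35 ± 0.10) and Myh11 (-0.23 ± 0.06) were lower. Cald1 and Myh11 were not called without ET3x2 rat 1, nor Cald1 with either covariate. Of 4 tested red cell genes 0 were called by limma and 0 had an unadjusted p below 0.05.

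Among salt transport genes of the thick ascending limb and distal tubule 4 of 16 were lower and 0 higher, with a median of -0.07. Slc12a1, for the cotransporter that takes up sodium with potassium and chloride in the thick limb, was 9.07, 8.72, 9.21 and 9.04 in ET3x2 and 9.54, 9.63, 9.90, 9.64 and 10.02 in S. The strains did not overlap, and the difference was -0.74 ± 0.13, a 1.67-fold lower signal (limma adjusted p = 5.0e-04). On high salt it was -0.29 ± 0.13 (limma adjusted p = 0.179), and the change with diet was -0.44 (limma adjusted p = 0.464). Wnk1 (-0.43 ± 0.08), for a kinase that controls these cotransporters, Slc8a1 (-0.49 ± 0.12), for a sodium and calcium exchanger, and Cldn10 (-0.21 ± 0.07), for a tight junction protein, were also lower. Other markers of the same segments were not called, among them Umod (-0.05), Slc12a3 (0.01) and Kcnj1 (-0.34 ± 0.23). Cldn10 was not called without ET3x2 rat 1 or 4 or S rat 2 or 5, or with either covariate.

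In the proximal tubule Lrp2 and Cubn, for the megalin and cubilin receptors that take up filtered protein, were lower, at differences of -0.55 ± 0.08 and -0.33 ± 0.08. Lrp2 was 11.65, 11.64, 11.90 and 11.79 in ET3x2 and 12.31, 12.28, 12.30, 12.22 and 12.37 in S, and the difference was -0.49 on high salt. The bicarbonate cotransporter gene Slc4a4 was lower (-0.40 ± 0.10) and the dicarboxylate transporter gene Slc13a2 higher (0.44 ± 0.14), which made 3 lower and 1 higher of 19, with a median of 0.06. Another probe set of Slc4a4 was called higher (0.38 ± 0.13, limma adjusted p = 0.0388). With the Gapdh covariate 1 of the 19 was lower, and Cubn and Slc4a4 were not called (limma adjusted p = 0.0821 and 0.0566). Slc13a2 was not called without ET3x2 rat 1 or 4 or S rat 1. Slc34a1 (0.02), Slc9a3 (-0.16) and Slc5a2 (0.12), for the transporters of phosphate, sodium against protons and glucose, were not called. In the collecting duct list 2 of 14 were lower, the water channel gene Aqp3 (-0.53 ± 0.12) and the glucocorticoid receptor gene Nr3c1 (-0.47 ± 0.11), and the proton pump gene Atp6v1b1 was higher (0.41 ± 0.11). The sodium channel subunits Scnn1a (0.22), Scnn1b (0.08) and Scnn1g (-0.09) and the aldosterone target Sgk1 (-0.11 ± 0.18, limma adjusted p = 0.705) were not called. Of 8 sodium pump genes Fxyd1, for a regulator, was higher (0.34 ± 0.07), and Atp1b1, for the beta subunit, was lower (-0.22 ± 0.06), the latter not called without ET3x2 rat 1 or 4. Another probe set of Atp1b1 was called lower without overlap of the groups (-0.46 ± 0.08, limma adjusted p = 4.62e-04). That probe set was also called lower on high salt (-0.35 ± 0.08, limma adjusted p = 0.0157). By the brightest probe set neither Nr3c1 nor Atp1b1 was called with either covariate.

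Of 5 tested genes of the angiotensin system 2 were lower and 0 higher, Enpep (-0.54 ± 0.08) and Mme (-0.39 ± 0.10), whose peptidases break down angiotensins. Enpep was 9.91, 10.00, 9.84 and 9.93 in ET3x2 and 10.36, 10.43, 10.35, 10.47 and 10.65 in S, without overlap. Agtr1a, for the main angiotensin receptor, differed by -0.20 without a call. Agt, for angiotensinogen, was below the signal limit of the tests, and without that limit it differed by 0.27 ± 0.12 (limma adjusted p = 0.134). Of the endothelin genes only Ece1, for the converting enzyme, was tested here, and it differed by 0.03 ± 0.07. Of 8 genes of osmolyte and water handling Slc5a3 (0.57 ± 0.20) and Akr1b1 (0.47 ± 0.13), for the inositol transporter and the sorbitol-making enzyme, were higher and 0 lower. Neither was called without ET3x2 rat 1 or 2, or with the bioD minus bioC covariate. With the Gapdh covariate Mme was not called.

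Antioxidant genes had 4 of 25 lower and 0 higher, with a median of 0.01. Cat, for catalase, was 11.09, 11.20, 11.37 and 11.24 in ET3x2 and 12.14, 11.92, 11.76, 11.93 and 11.92 in S (-0.71 ± 0.11, limma adjusted p = 2.67e-04). Gclm, for a subunit of the enzyme that limits glutathione synthesis, was 10.70, 10.98, 11.30 and 10.91 in ET3x2 and 11.81, 11.47, 11.68, 11.66 and 11.73 in S (-0.70 ± 0.12). Neither gene's groups overlapped. Cat and Gclm were also lower in ET3x2 than in ET3x1, with differences of -0.58 ± 0.12 and -0.53 ± 0.12 (limma adjusted p = 0.00898 and 0.0195). On high salt they differed from S by -0.23 ± 0.11 and -0.26 ± 0.12, without a call (limma adjusted p = 0.235 and 0.192). Their change with diet was not called either (limma adjusted p = 0.324 and 0.411). Nqo1 (-0.35 ± 0.08) and Gsta1 (-0.27 ± 0.08) completed the 4, and Gsta1 was not called without ET3x2 rat 1. Amino acid and creatine enzymes had 5 lower and 3 higher of 26, with Gatm, Aldh6a1, Dld (-0.53 ± 0.13), Hibadh (-0.35) and Oat (-0.34) lower and Bckdha (0.80 ± 0.21), Asl (0.54 ± 0.17) and Gamt (0.29) higher. Bckdha was not called without ET3x2 rat 1, and Asl was not called without ET3x2 rat 1 or 2 or S rat 1 or 2. With the bioD minus bioC covariate 0 of the 26 were higher and 5 lower, and with the Gapdh covariate 1 was higher and 3 lower.

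Focal adhesion genes, by the brightest probe set, had 6 of 22 lower and 1 higher, with a median of -0.10. Actn4 (-0.61 ± 0.11), for an actin crosslinker, Tns3 (-0.49 ± 0.08), Itgb1 (-0.43 ± 0.12) and Lims1 (-0.38 ± 0.08) were lower and Bcar1 (0.32 ± 0.09) was higher. Actn4 was 9.83, 9.69, 9.47 and 9.86 in ET3x2 and 10.23, 10.54, 10.20, 10.23 and 10.43 in S. Bcar1 was not called without ET3x2 rat 1. The brightest probe sets of Vcl and Tns1, at -0.23 ± 0.08 and -0.13 ± 0.08, were not the ones named above and were not called. Of 23 matrix genes 5 were lower, led by Nid1 (-0.49 ± 0.12) and Col1a2 (-0.38 ± 0.12), and 2 higher, Mmp14 and Timp2 (0.27). With the Gapdh covariate 4 focal adhesion genes were lower, as with the bioD minus bioC covariate, and Itgb1 was not called with either. The lower count of matrix genes was 1 with either covariate, 1 without ET3x2 rat 1, 2 or 4 and 2 without S rat 2, 3 or 5. Of 11 markers of tubular injury the keratin genes Krt19 (0.70 ± 0.18) and Krt8 (0.62 ± 0.13) were higher and 4 were lower, with Spp1 (-0.46 ± 0.13) and Vim (-0.43 ± 0.11) the furthest. Vim was not called without ET3x2 rat 2, and the lower count of injury genes was 2 with the bioD minus bioC and 1 with the Gapdh covariate.

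**Figure D5:**
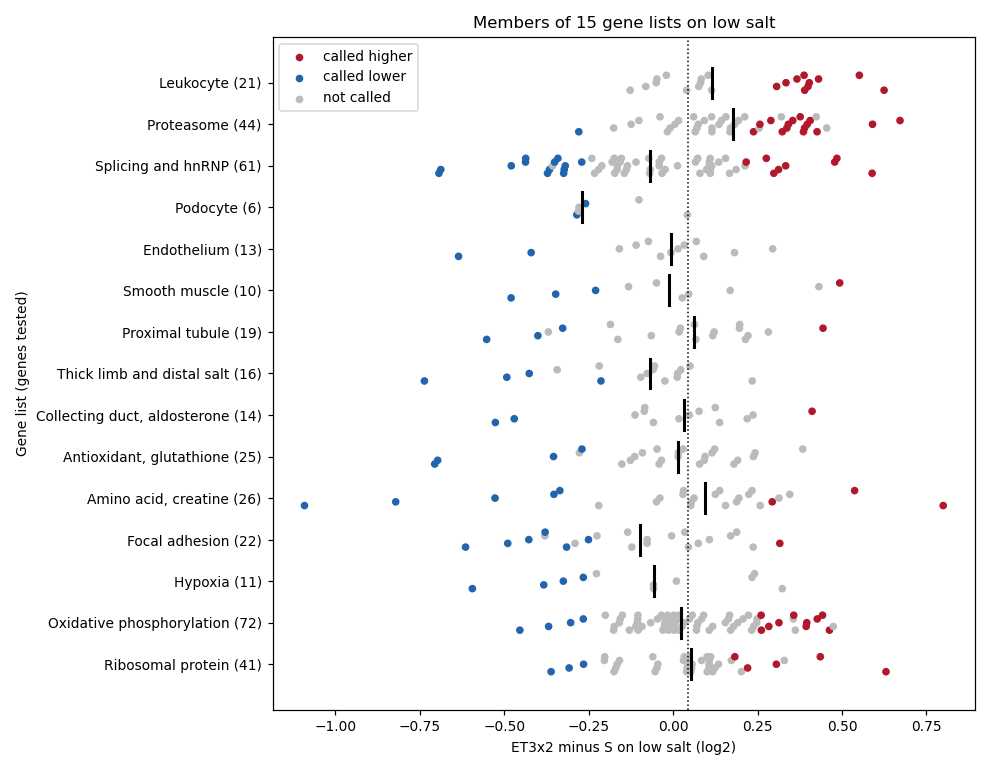
Difference of ET3x2 minus S on low salt (log2) for each tested gene of 15 lists, with genes called higher in red, called lower in blue and not called in grey, a black bar at each list's median and a dotted line at the median of all 8825 genes, 0.04. The proteasome median of 0.18 and the podocyte median of -0.27 lie furthest to each side among the 15 lists.

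Signal and energy genes were also called in part. Of 11 hypoxia genes 4 were lower and 0 higher. Hif1a, for the oxygen-regulated transcription factor subunit, was 9.41, 9.48, 9.47 and 9.47 in ET3x2 and 10.07, 10.02, 9.92, 10.04 and 10.20 in S (-0.59 ± 0.09), and Epas1, for its relative, differed by -0.38 ± 0.10. Ndrg1 and Pgk1 were also lower. Ndrg1 was not called without ET3x2 rat 1 or 4 or S rat 1 or 2, or with the Gapdh covariate. Pgk1 was not called without ET3x2 rat 2 or 4 or S rat 1, or with the bioD minus bioC covariate. The lower count of hypoxia genes was 2 without ET3x2 rat 4 or S rat 1, and 3 with either covariate. Of 16 genes of insulin, insulin-like growth factor and interleukin-6 signalling Irs2 (-0.74 ± 0.20), Igfbp5 (-0.60 ± 0.11) and Il6st (-0.39 ± 0.09) were lower and 0 higher. Irs2 was not called without ET3x2 rat 2 or with the bioD minus bioC covariate. Another probe set of Il6st was called higher (0.61 ± 0.14, limma adjusted p = 0.00474), so that the probe sets of this gene went both ways. The printed probe sets of Igfbp5 and Il6st were called on high salt as well, at -0.45 and -0.38. Of 12 clock genes Dbp (0.57 ± 0.16) and Tef (0.45 ± 0.13) were higher and Bhlhe40 (-0.64 ± 0.23), Nr1d2 (-0.40 ± 0.12) and Clock (-0.33 ± 0.08) lower. Of 11 immediate early genes Junb (0.36) was higher and Klf6 (-0.37) and Klf4 (-0.31) were lower. Of these clock and immediate early genes only Clock kept its call without any 1 of the 9 rats. With either covariate 1 clock gene was lower and 2 higher, but with the bioD minus bioC covariate the higher ones did not include Tef (limma adjusted p = 0.0548). Junb, Klf6 and Klf4 were not called with the bioD minus bioC covariate.

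Both tested genes of mitochondrial DNA, COX1 and COX2, were lower. COX2 was 13.55, 13.46, 13.76 and 13.75 in ET3x2 and 14.35, 14.14, 13.96, 14.25 and 14.14 in S (-0.53 ± 0.09, limma adjusted p = 2.9e-04). Nuclear genes of oxidative phosphorylation had 10 of 72 higher and 4 lower, near the share among all genes, with a median of 0.02. Their count of higher genes was 0 without ET3x2 rat 1, 2 without ET3x2 rat 2, 22 without ET3x2 rat 3, 5 without ET3x2 rat 4, 2 without S rat 1, 5 without S rat 2 and 4 without S rat 4. Ribosomal protein genes had 5 higher and 3 lower of 41. Fatty acid oxidation genes had 2 higher and 3 lower of 22, cholesterol synthesis genes 3 and 2 of 20, chaperones 2 and 3 of 17, and genes of gluconeogenesis and ammonia 2 and 2 of 11. Of 13 cell division genes Ccnb1 was lower (-0.36 ± 0.11) and 0 were higher, and Ccnb1 was not called without ET3x2 rat 1 or 2 or S rat 1. Without ET3x2 rat 1 the higher counts of fatty acid oxidation, cholesterol synthesis, chaperones and gluconeogenesis and ammonia were 0, and that of ribosomal proteins was 1. With the bioD minus bioC covariate the higher count was 1 for oxidative phosphorylation, 1 for ribosomal proteins and 0 for cholesterol synthesis, fatty acid oxidation and gluconeogenesis and ammonia. With the Gapdh covariate it was 0 for oxidative phosphorylation.

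The length of the called genes, from start to end in the GRCr8 table, differed by direction. Its median was 39.4 kb for genes called lower, 12.6 kb for genes called higher and 22.8 kb over the 8787 genes with a known length. Across these genes, which are not independent replicates, Spearman's rho of length and difference was -0.27. The part of gene length in the results above was not tested.

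Along the genome the calls were spread over all 21 chromosomes. The share of called genes ran from 16.2% on chromosome 13 to 27.6% on chromosome 17 and was 22.9% on chromosome 3, against 22.2% of all genes. The genes of the next sentences are given by their brightest probe set. In the last 10% of the tested gene order of chromosome 3, where Rtel1 lies, 17 of 66 genes (25.8%) were called, 13 higher and 4 lower. Atp9a (0.49 ± 0.12), for a lipid flippase, Pcmtd2 (0.48 ± 0.16), Ctsz (0.42 ± 0.11), for the protease cathepsin Z, and Npepl1 (0.40 ± 0.10) were the highest by that probe set, with Rtel1 at 0.31, and Polr3k (-0.34 ± 0.10) and Adnp (-0.33 ± 0.10) the lowest. Of the 17 only Rtel1, Cstf1 (0.32 ± 0.09), Bmp7 (0.28 ± 0.08) and Prpf6 (0.33 ± 0.07) did not overlap between the groups. Ctsz (0.40), Lama5 (-0.41) and Polr3k (-0.42) were called on high salt as well as Rtel1. Pcmtd2 was not called without ET3x2 rat 1, 2 or 3 or S rat 1 or 2, and Ctsz and Cstf1 without ET3x2 rat 1 or 4. Adnp, Cstf1 and Bmp7 were also not called with either covariate. Adnp was not called without ET3x2 rat 1, Bmp7 without ET3x2 rat 1 or S rat 1, and Polr3k without ET3x2 rat 3 or S rat 5.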

How the data were processed

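Kidney mRNA was measured on Affymetrix RAE230A and RAE230B arrays, 1 of each per rat, with 4 to 5 rats in each of 6 groups of strain and diet. The deposited values are log2 probe set summaries, a scale read here from their range (3.40 to 14.69). How the authors summarised and normalised them is not given in the sources used here, and the number of arrays limits the precision.

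Each chip was fitted with limma 3.58.1 in R 4.3.3 to the deposited log2 values, with the means of the 6 groups, an intensity trend and 20 residual degrees of freedom. The fit was also run on simulated data with independent noise in each probe set and rat. Such data hold no shift shared by the probe sets of a rat, so they cannot show how the calls depend on single rats. Control probe sets and those with a mean below the chip median over the 26 rats (7.51 on RAE230A, 6.38 on RAE230B) were left out, and for the 100 probe sets that both chips share only the RAE230A values were tested. Benjamini-Hochberg adjustment covered all 15473 tested probe sets, tests were two-sided, and a call is an adjusted p below 0.05 with no limit on fold. Errors marked ± are standard errors of the fit.

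Gene names came from the platform annotation, updated by gene ID in the RefSeq table of GRCr8. A single symbol was found for 11110 tested probe sets, several for 274 and none for 4089. Named genes were the 14 with the largest difference each way among called genes (by the probe set of smallest p), the 6 of smallest adjusted p, those called for the change with diet, up to 5 called members of each of 31 lists (by the brightest probe set of a gene), or 2 where none was called, a few fixed genes, and the called genes of the last 10% of chromosome 3. Other list members are named for their role. The comparison, the lists and the named genes were chosen with earlier results of these data known. Quality measures were compared with an exact permutation test (scipy 1.17.1, numpy 2.4.6, pandas 2.3.3), whose two-sided p doubles the smaller tail and cannot go below 0.0159. The comparison with ET3x1 and the list counts without 1 rat or with a covariate were added after seeing the data. Some genes are not reported here.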

Additional observations from a re-analysis of the deposited data

Results flagged for a closer look

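For each named gene the 4 ET3x2 and 5 S rats on low salt were searched for a rat far from the rest of its group, by the gap to the nearest rat as a share of the group's range, against Dixon's 95% critical values. Chance passes this limit in about 1 of 20 groups, and 12 of the 316 groups of 158 genes passed it. ET3x2 rat 3 accounted for 5 of the 12. It was high for Etfa (0.908 of the range), Lims1 (0.900), Srsf11 (0.879) and Ndufs1 (0.851), and low for Ece1 (0.884). Among the other ET3x2 rats, rat 2 was high for Gsta1 (0.871) and rat 1 low for Hif1a (0.869). Of the S rats, rat 4 was high for Vcl (0.873) and low for Cstf1 (0.900), rat 5 was high for Ehd3 (0.764), and rat 1 was low for Sf3b5 (0.745) and Adnp (0.742).

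The change of the strain difference with diet, low minus high salt, passed the test in Tns1 (1.14, log2), Myh1 (-0.74) and Igf1r (0.77), with the adjusted p-values given above.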

How the results depend on the processing

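The count of 2817 probe sets called on low salt became 4728 with no filter on low signals, 1509 among the brightest 25% of probe sets, 1393 with the groups compared alone, 1542 with the Gapdh covariate and 1437 with the bioD minus bioC covariate. Without 1 rat it ran from 1345 to 3907, and the other 5 settings stayed within 1.5 times of it. The 658 calls on high salt became 326 among the brightest 25% and 1319 with array weights, and ran from 79 to 930 without 1 rat. The 3 calls for the change with diet became 1 after quantile normalization, 8 with no filter and 416 with array weights. limma gave 0 with medians centred, groups alone, the Gapdh covariate and the bioD minus bioC covariate, where 1362, 1331, 1088 and 1049 probe sets had an unadjusted p below 0.05. Without 1 rat it gave 0 to 44. The cause of these changes was not tested, except that the filters change the number of probe sets tested. Of 153 called named genes 79 kept their call without any 1 of the 9 rats and 92 with the bioD minus bioC covariate, and no direction reversed in any setting. Of 279 list medians without 1 rat 1 moved by more than the spread of the rats. No paired analysis was possible because the numbers of the rats do not link rats of different groups.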
